A study of Mus musculus with 15 samples.

Results

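Genes of the cell division cycle were followed in the livers of adult male mice that had been malnourished around birth, and in the livers of their sons. The genes were 36 listed symbols that act in G1 entry, DNA replication or mitosis. A gene entered through the probe sets annotated to its symbol alone, and where it had several, through the one with the highest mean over the 15 arrays. On that rule 35 of the 36 were measured, among 18193 genes on the array in all. Ccnb1 had no probe set annotated to it alone. A mean log2 level under 5 was taken as dim, and 20 of the 35 genes were dim. The dim genes nearest that limit were Ccna2 at 4.91 and Mcm3 at 4.87, and the lowest gene above it was Mcm5 at 5.24.

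The study set 5 groups of 3 pools against each other, and the pools were numbered 1 to 15. Pools 1 to 3 were control males, labelled as coming from both generations of offspring. Pools 4 to 6 (IUGR F1, intrauterine growth restriction) were adult males whose calories had been cut by 50% before birth. Pools 7 to 9 (ON F1) were adult males overfed during lactation. Pools 10 to 12 (IUGR F2) and pools 13 to 15 (ON F2) were the adult male offspring of the IUGR and of the ON mice, so that the question was whether an expression pattern of exposed males recurred in their sons through the father. The titles were read as 3 livers in each pool, so 1 array shows no spread between single mice. Nothing states that the pools held separate litters, so each p-value covers the spread among these pools alone, which may be technical. The labels give no strain, age in weeks or time of day at death, and no treatment beyond the feeding.

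Adult hepatocytes rest outside the cell cycle and re-enter it after injury or loss of tissue. Cyclin D1 and cyclin E with their kinases open the way from G1 into S phase, and the MCM helicase, loaded by CDC6 and switched on with CDC45 and the GINS complex, unwinds DNA for replication around the sliding clamp PCNA. Ribonucleotide reductase and thymidylate synthase supply the nucleotides. Mitosis is driven by CDK1 with its cyclins, by Polo-like and Aurora kinases, and is ended when CDC20 and the ubiquitin-conjugating enzyme UBE2C direct the anaphase-promoting complex to destroy cyclin B and securin. In a liver lobe, genes of S phase and mitosis can come from a few dividing hepatocytes or from dividing Kupffer, endothelial or blood cells.

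The arrays were alike at large, with correlations between arrays of 0.984 to 0.996. Alb lay between 14.41 and 14.49 in all 15 pools, and the hepatocyte marker list moved by no more than 0.04 on the log2 scale in its median. Some pools stood apart in other genes. In pool 8 the 8 interferon response genes were all at their highest of the 15 pools (median 2.21 above their own means). In pool 13 the 6 pancreatic acinar genes were all at their highest (median 4.19), and the Kupffer cell list had its highest median (0.59). In pool 5 the 8 skeletal muscle genes were all above their means (median 0.53). The clock output gene Dbp, which cycles over the day in liver, ranged from 5.30 to 10.71 and lay above 9 in pools 2, 5, 6, 13 and 14. Each comparison was therefore also made without pools 5, 8 and 13 and with Dbp as a covariate.

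High values of these genes gathered in a few pools. Pools 8 and 13, from ON F1 and ON F2, held the highest value of the 15 for 12 and 9 of the 35 genes, where pool 8 held the highest for 13.9% and pool 13 for 6.57% of all genes. Pool 10, from IUGR F2, held the lowest value for 9 of the 35, where it held the lowest for 7.39% of all genes. The median deviation of the 35 genes from their own means was 0.25 in pool 8, 0.26 in pool 13 and -0.19 in pool 10, and between -0.15 and 0.06 in the other pools. In whole tissue, more dividing cells and more of these RNAs per cell cannot be told apart. No gene of the 35 passed an adjusted p of 0.05 in any comparison of groups with all 15 pools.

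**Figure D1:**
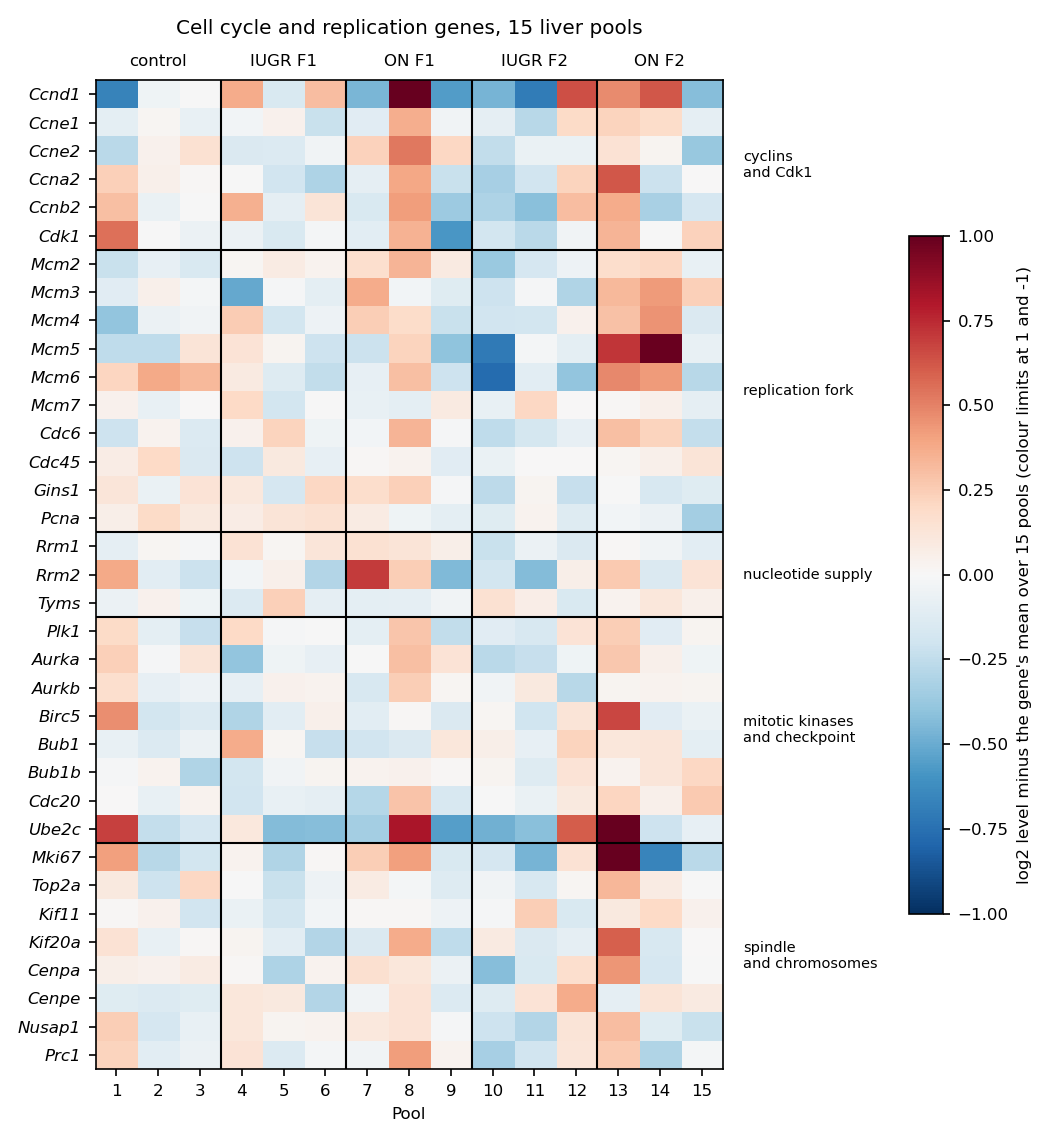
Log2 level of the 35 genes in each of the 15 pools, as the difference from the gene's own mean, with genes in rows by role, pools in columns by group, and red above and blue below the mean (colours end at 1 and -1). Pools 8 and 13 are red over most rows and pool 10 is blue over most. In many rows the pools beside them in the same groups are paler or of the other sign. Pool 14, beside pool 13, is also red over the MCM rows, and its Mcm5 value is the highest of the 15. Pool 11, beside pool 10, is also blue over the cyclin and Cdk1 rows.

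Cyclin D1, which the liver expresses at rest and raises on growth signals, was the brightest of the cyclins and the one that varied most. Ccnd1 stood at 8.00, 8.63 and 8.67 in the control pools, 9.04, 8.52 and 8.98 in IUGR F1, 8.21, 9.73 and 8.11 in ON F1, 8.21, 7.97 and 9.31 in IUGR F2, and 9.14, 9.29 and 8.25 in ON F2. Pools 8, 12, 14 and 13 were the highest, and ON F1, IUGR F2 and ON F2 each held both a pool above 9 and a pool at 8.25 or below. The highest and lowest pools lay 1.76 apart. The other probe sets of Ccnd1 spanned 1.91 and 1.38, with pool 8 highest in the former and pool 14 in the latter. The group differences from control ran from 0.06 in IUGR F2 to 0.46 in ON F2, with a standard error of 0.42, and the 95% interval in ON F2 ran from -0.43 to 1.35. The other probe sets gave 0.42 and 0.25 in IUGR F1, 0.17 and -0.26 in ON F1, -0.11 and -0.13 in IUGR F2, and 0.15 and -0.06 in ON F2, so IUGR F1 was the one group above control in all 3.

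The E cyclins, which bind CDK2 at the G1 to S transition, spanned less over the pools. Ccne1 stood at 5.98, 6.09 and 6.00 in control, 6.05, 6.12 and 5.86 in IUGR F1, 5.96, 6.44 and 6.04 in ON F1, 5.99, 5.80 and 6.27 in IUGR F2, and 6.30, 6.26 and 5.99 in ON F2 pools. In this probe set its groups overlapped in every comparison. The dimmer probe set of Ccne1, at a mean of 4.87, spanned 1.19 over the pools. In it the ON F2 pools, at 5.39, 5.43 and 4.93, lay above all control and ON F1 pools, narrowly in pool 15. The differences in the mean were 0.43 and 0.68. Ccne2, a dim gene, stood at 3.70, 4.01 and 4.12 in control, 3.82, 3.83 and 3.93 in IUGR F1, 4.20, 4.50 and 4.18 in ON F1, 3.72, 3.90 and 3.91 in IUGR F2, and 4.12, 4.00 and 3.59 in ON F2 pools. All 3 ON F1 pools lay above every pool of the other 4 groups. The difference of ON F1 from control was 0.35 ± 0.14 (standard error, limma adjusted p = 0.287), that of ON F2 from ON F1 was -0.39 ± 0.14 (adjusted p = 0.145), and that of IUGR F1 from ON F1 was -0.43 ± 0.14 (adjusted p = 0.671).

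Of the 10 replication fork genes, Mcm5 and Mcm6 had the widest ranges over pools, of 1.69 and 1.25, and Mcm7 the narrowest, of 0.38. Mcm5 stood at 4.99, 4.99 and 5.37 in control, 5.38, 5.27 and 5.03 in IUGR F1, 5.03, 5.46 and 4.84 in ON F1, 4.54, 5.22 and 5.14 in IUGR F2, and 5.96, 6.23 and 5.17 in ON F2 pools. Pools 13 and 14 stood above the rest and pool 10 below, while pool 15, also ON F2, lay among the controls. Mcm6 stood at 5.99, 6.16 and 6.10 in control, 5.87, 5.65 and 5.53 in IUGR F1, 5.69, 6.08 and 5.57 in ON F1, 5.00, 5.67 and 5.38 in IUGR F2, and 6.25, 6.21 and 5.50 in ON F2 pools. No IUGR pool of either generation reached the lowest control pool, and pool 10 was again the lowest. The promoters of both genes are shown because their windows hold E2F letters and their levels shared the highs of pools 13 and 14 and the low of pool 10. Each run is the 250 bases before the RefSeq start on the gene's own strand in GRCm38.p6, Mcm5 at chr8:75109259-75109508 (plus strand) and Mcm6 at chr1:128359706-128359955 (minus strand). Capitals mark TTGGCGC, a form of the E2F site, and CCAAT, the box bound by NF-Y, each on either strand.
Mcm5: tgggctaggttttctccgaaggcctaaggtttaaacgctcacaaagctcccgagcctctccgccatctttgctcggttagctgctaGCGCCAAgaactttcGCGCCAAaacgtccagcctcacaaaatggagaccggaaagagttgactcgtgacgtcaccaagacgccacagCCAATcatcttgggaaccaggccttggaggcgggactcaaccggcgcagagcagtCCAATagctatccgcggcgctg
Mcm6: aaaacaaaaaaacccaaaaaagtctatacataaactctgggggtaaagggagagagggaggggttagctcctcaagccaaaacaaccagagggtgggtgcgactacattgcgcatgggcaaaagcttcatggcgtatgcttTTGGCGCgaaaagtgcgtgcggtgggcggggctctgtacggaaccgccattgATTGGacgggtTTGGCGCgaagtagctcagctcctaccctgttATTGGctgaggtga
In Mcm5 the E2F letters began 164 and 149 bases before the start, and in Mcm6 109 and 46 bases before it. Of the 5 MCM genes with a window in RefSeq, 4 held TTGGCGC in the 300 bases from 250 before to 50 after the start (80.0%), where 2.85% of 27025 genes did. Over the 28 of the 35 genes that had a window, 6 held it (21.4%), namely Cdk1, Mcm3, Mcm5, Mcm6, Mcm7 and Mki67. Their levels did not share 1 pool pattern. Mcm7 spanned 0.38 over the pools, and Mki67 was highest in pool 13 and lowest in pool 14. Mcm2 had a window without TTGGCGC and was also lowest in pool 10. A link between the letters and the pool levels was not tested. The letters searched were chosen from the known factors of these genes after the values were seen, and a match is not a measured site.

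Mcm2, the N-terminally phosphorylated subunit that the CDC7 kinase activates, showed the smallest p of the 35 genes over all groups. It stood at 5.42, 5.56 and 5.49 in control, 5.66, 5.73 and 5.68 in IUGR F1, 5.81, 5.98 and 5.73 in ON F1, 5.27, 5.47 and 5.59 in IUGR F2, and 5.82, 5.85 and 5.57 in ON F2 pools. All 9 pools of IUGR F1, ON F1 and ON F2 lay above the control pools, narrowly in pool 15, and IUGR F2 overlapped the controls. The F test over the 5 groups gave an adjusted p of 0.139. The difference of ON F1 from control was 0.35 ± 0.10 (limma adjusted p = 0.169), and the dimmer probe set of the gene gave 0.15.

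Mcm3, a dim gene, stood at 4.75, 4.92 and 4.85 in control, 4.36, 4.85 and 4.77 in IUGR F1, 5.24, 4.84 and 4.74 in ON F1, 4.66, 4.85 and 4.56 in IUGR F2, and 5.19, 5.30 and 5.11 in ON F2 pools. The ON F2 pools lay above the control and both IUGR groups, and pool 7 of ON F1 lay with them. Its 4 other probe sets gave differences of ON F2 from control of 0.13, 0.26, 0.02 and 0.45, beside 0.36 for the brightest. Mcm4 stood at 5.10, 5.44 and 5.46 in control, 5.75, 5.31 and 5.45 in IUGR F1, 5.75, 5.68 and 5.27 in ON F1, 5.30, 5.32 and 5.54 in IUGR F2, and 5.79, 5.95 and 5.35 in ON F2 pools. Its highest pools were again 14 and 13, and each of the other 4 groups overlapped the controls. Mcm7, the brightest MCM gene, stood at 8.29, 8.17 and 8.25 in control, 8.45, 8.06 and 8.24 in IUGR F1, 8.17, 8.15 and 8.33 in ON F1, 8.17, 8.45 and 8.25 in IUGR F2, and 8.26, 8.30 and 8.15 in ON F2 pools. Its groups overlapped in every comparison, and the difference of ON F2 from control was 0.00 with a 95% interval of -0.22 to 0.22. Its 3 dimmer probe sets gave -0.01, 0.29 and -0.07 for the same difference, and 0.20, 0.40 and -0.02 in ON F1.

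The other fork genes spanned 0.59 or less over the pools. Pcna stood at 8.89, 9.03 and 8.93 in control, 8.91, 8.96 and 8.99 in IUGR F1, 8.92, 8.79 and 8.74 in ON F1, 8.72, 8.87 and 8.71 in IUGR F2, and 8.81, 8.78 and 8.50 in ON F2 pools. Both F2 groups lay below every control pool, which is the opposite side from Mcm5 and Mcm3 in ON F2. The difference from control was -0.19 (95% interval -0.38 to 0.01) in IUGR F2 and -0.26 ± 0.09 (limma adjusted p = 0.212) in ON F2. Gins1, a subunit of the helicase activator, stood at 5.99, 5.80 and 6.00 in control, 5.96, 5.70 and 6.07 in IUGR F1, 6.04, 6.10 and 5.85 in ON F1, 5.60, 5.89 and 5.64 in IUGR F2, and 5.86, 5.70 and 5.74 in ON F2 pools, with its lowest value in pool 10. Cdc45, the helicase cofactor, stood at 5.57, 5.69 and 5.34 in control, 5.28, 5.59 and 5.41 in IUGR F1, 5.50, 5.52 and 5.37 in ON F1, 5.43, 5.49 and 5.49 in IUGR F2, and 5.51, 5.54 and 5.62 in ON F2 pools. Its group means lay between 5.42 and 5.56, and the F2 groups did not overlap each other, narrowly, at 5.49 against 5.51. In the dimmer probe set of Cdc45, at a mean of 4.40, the F2 groups overlapped. It gave 0.23 for ON F1 against control, beside -0.06 for the brightest. The helicase loader Cdc6, at the floor of the scale, lay between 2.80 and 3.39, highest in pool 8 and lowest in pool 10.

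For nucleotide supply, Rrm1, the large subunit of ribonucleotide reductase, stood at 5.92, 6.03 and 6.00 in control, 6.16, 6.03 and 6.13 in IUGR F1, 6.16, 6.14 and 6.07 in ON F1, 5.79, 5.96 and 5.87 in IUGR F2, and 6.03, 5.98 and 5.91 in ON F2 pools. In both lineages every F2 pool lay below the lowest F1 pool. The F2 minus F1 difference was -0.24 ± 0.07 (limma adjusted p = 0.272) in the IUGR lineage and -0.16 ± 0.07 (adjusted p = 0.245) in the ON lineage, and the other probe sets of Rrm1, both dim, gave 0.15 and 0.08 in the ON lineage. Rrm2, the subunit made in S phase, stood at 5.66, 5.18 and 5.07 in control, 5.25, 5.33 and 4.99 in IUGR F1, 5.98, 5.53 and 4.84 in ON F1, 5.10, 4.85 and 5.34 in IUGR F2, and 5.54, 5.14 and 5.42 in ON F2 pools. Its highest and lowest pools, 7 and 9, were of the same group. Thymidylate synthase, Tyms, was dim and lay between 3.42 and 3.81.

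Of the mitotic genes, Ube2c was high in 1 pool of each of 4 groups. It stood at 4.91, 3.99 and 4.06 in control, 4.33, 3.79 and 3.81 in IUGR F1, 3.89, 5.05 and 3.68 in ON F1, 3.75, 3.81 and 4.83 in IUGR F2, and 5.36, 4.03 and 4.15 in ON F2 pools. Pools 1, 8, 12 and 13 thus lay above 4.8, and the other 11 at 4.33 or below. The range over pools was 1.68, while the group means ran from 3.98 to 4.51. The probe set of Cdc20 with the widest range, which was not its brightest, stood at 6.16, 5.15 and 5.44 in control, 5.40, 4.95 and 5.17 in IUGR F1, 5.00, 6.54 and 4.88 in ON F1, 5.15, 4.85 and 6.08 in IUGR F2, and 6.26, 5.18 and 5.41 in ON F2 pools. Pools 8, 13, 1 and 12 were again the highest, in that order. The brightest probe set of Cdc20 spanned 0.57, with 5.62, 5.54 and 5.65 in control, 5.42, 5.54 and 5.52 in IUGR F1, 5.33, 5.90 and 5.45 in ON F1, 5.61, 5.55 and 5.71 in IUGR F2, and 5.83, 5.67 and 5.87 in ON F2 pools. In it all 3 ON F2 pools lay above the controls, by 0.19 in the mean (95% interval -0.07 to 0.44).

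Cyclin B2, a partner of CDK1 in mitosis, and Ki-67, which coats mitotic chromosomes and marks cycling cells, were both dim. Ccnb2 stood at 4.38, 4.01 and 4.08 in control, 4.43, 3.99 and 4.20 in IUGR F1, 3.93, 4.49 and 3.71 in ON F1, 3.77, 3.66 and 4.39 in IUGR F2, and 4.45, 3.76 and 3.91 in ON F2 pools. Pool 4 of IUGR F1 joined pools 1, 8, 12 and 13 at the top. Mki67 stood at 4.62, 3.93 and 4.03 in control, 4.24, 3.91 and 4.22 in IUGR F1, 4.45, 4.62 and 4.05 in ON F1, 4.04, 3.74 and 4.35 in IUGR F2, and 5.43, 3.55 and 3.94 in ON F2 pools. Its highest and lowest pools, 13 and 14, were both ON F2, and the 95% interval of ON F2 against control ran from -0.64 to 0.87. Promoters of these genes are shown because they share CCAAT boxes with TTTGAA, the core of the CHR element that the DREAM and MuvB complexes bind in mitotic genes. The runs are the 250 bases before the RefSeq start in GRCm38.p6 on the gene's strand, Ube2c at chr2:164769679-164769928 (plus strand), Cdc20 at chr4:118437344-118437593 (minus strand), Ccnb2 at chr9:70421555-70421804 (minus strand) and Mki67 at chr7:135716380-135716629 (minus strand). Capitals mark TTTGAA, the CCAAT box and, in Mki67, the E2F letters, each on either strand.
Ube2c: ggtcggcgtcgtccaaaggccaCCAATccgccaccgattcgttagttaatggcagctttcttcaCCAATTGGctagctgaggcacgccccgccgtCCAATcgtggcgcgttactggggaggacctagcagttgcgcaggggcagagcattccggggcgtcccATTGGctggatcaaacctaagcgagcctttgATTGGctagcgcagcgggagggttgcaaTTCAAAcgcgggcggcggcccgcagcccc
Cdc20: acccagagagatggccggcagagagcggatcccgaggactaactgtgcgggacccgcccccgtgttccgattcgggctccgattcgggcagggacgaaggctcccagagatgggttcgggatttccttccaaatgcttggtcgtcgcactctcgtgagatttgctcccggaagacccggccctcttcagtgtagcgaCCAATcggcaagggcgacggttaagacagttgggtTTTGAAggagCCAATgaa
Ccnb2: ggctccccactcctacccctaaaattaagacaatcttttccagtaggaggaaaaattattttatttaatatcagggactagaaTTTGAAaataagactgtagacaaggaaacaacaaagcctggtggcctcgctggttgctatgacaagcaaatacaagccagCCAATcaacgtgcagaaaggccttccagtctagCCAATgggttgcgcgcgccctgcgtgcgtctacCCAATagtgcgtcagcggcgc
Mki67: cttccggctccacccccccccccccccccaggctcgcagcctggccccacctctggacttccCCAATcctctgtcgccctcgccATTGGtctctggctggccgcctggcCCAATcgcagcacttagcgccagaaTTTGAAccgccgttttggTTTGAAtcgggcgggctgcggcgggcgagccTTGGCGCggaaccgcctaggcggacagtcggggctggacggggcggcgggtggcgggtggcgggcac
The CHR letters began 29 bases before the start in Ube2c, 18 in Cdc20, 167 in Ccnb2, and 116 and 98 in Mki67. Ccnb2 has another match past the start, in the window but not in the run shown. In Ube2c 2 of the CCAAT matches overlap each other, and no CCAAT match overlaps TTGGCGC in the windows shown. Of the 16 mitosis genes with a window, 12 held TTTGAA in the 300 bases (75.0%), against 14 of all 28 of these genes with a window (50.0%) and 20.2% of 27025 genes. CCAAT was in 23 of the 28 (82.1%) and in 41.1% of all. A match says only that the letters are there.

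**Figure D2:**
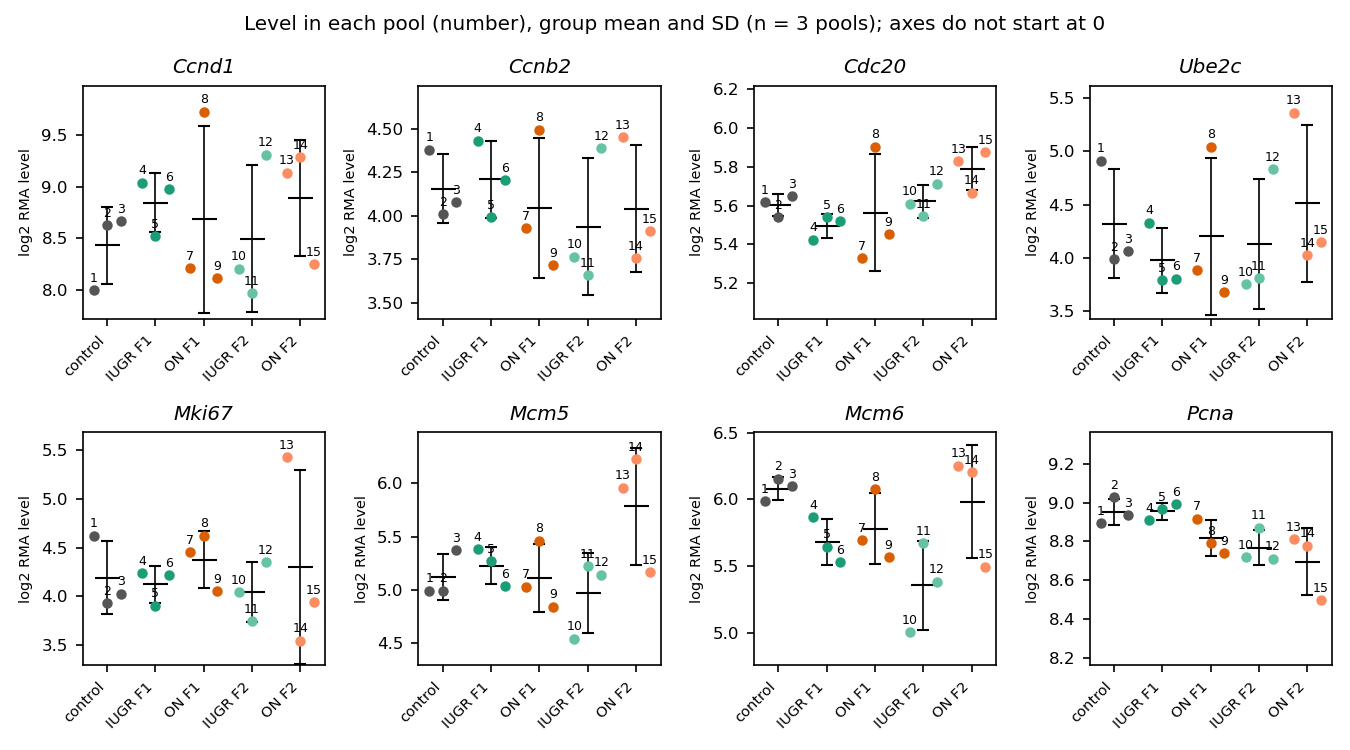
Log2 RMA level of 8 of the genes in each pool, drawn as numbered points by group with the group mean and SD (n = 3 pools), on axes that do not start at 0. In Ube2c and Ccnb2 pools 1, 8, 12 and 13 sit at or near the top of their own groups, so the SD bars span most of the range, and in Mcm5 pools 13 and 14 sit above all others.

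Cdk1, the kinase that starts mitosis, stood at 5.82, 5.26 and 5.21 in control, 5.21, 5.11 and 5.25 in IUGR F1, 5.16, 5.62 and 4.68 in ON F1, 5.08, 5.00 and 5.23 in IUGR F2, and 5.60, 5.26 and 5.50 in ON F2 pools. Pool 1 was the highest and pool 9 the lowest. All 3 ON F2 pools lay above all 3 IUGR F2 pools. Ccna2, which works in S phase and G2, lay between 4.58 in pool 10 and 5.53 in pool 13, with pools 8, 1 and 12 next at 5.30, 5.15 and 5.13.

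Among the kinases and checkpoint genes, Aurka, the centrosome kinase of the early spindle, stood at 4.92, 4.67 and 4.80 in control, 4.28, 4.63 and 4.60 in IUGR F1, 4.68, 4.98 and 4.82 in ON F1, 4.41, 4.45 and 4.63 in IUGR F2, and 4.95, 4.73 and 4.63 in ON F2 pools. Both IUGR groups lay below all control and ON F1 pools. The difference from control was -0.29 ± 0.12 (limma adjusted p = 0.522) in IUGR F1 and -0.30 ± 0.12 (adjusted p = 0.683) in IUGR F2, and these share the control pools. The other probe set of Aurka, dimmer at a mean of 4.10, gave 0.11 and 0.10, on the other side of 0. Bub1b, a kinase of the spindle checkpoint, stood at 4.45, 4.50 and 4.16 in control, 4.28, 4.43 and 4.49 in IUGR F1, 4.50, 4.51 and 4.48 in ON F1, 4.50, 4.33 and 4.60 in IUGR F2, and 4.50, 4.59 and 4.67 in ON F2 pools. The ON F2 pools were above the controls by 0.22 ± 0.10 (adjusted p = 0.320), narrowly in pool 13, and the other probe sets gave -0.10 and -0.03.

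The remaining dim genes of mitosis gave ranges of a similar kind. Birc5, the survivin subunit of the chromosomal passenger complex, ran from 3.22 in pool 4 to 4.19 in pool 13, with pool 1 next at 3.99. Plk1, the Polo-like kinase, ran from 4.12 to 4.64, with pools 8, 13, 4, 1 and 12 between 4.50 and 4.64 and the other 10 at 4.39 or below. Aurkb, the passenger complex kinase, was highest in pool 8 at 3.54 and lowest in pool 12 at 3.02. The checkpoint kinase Bub1 lay between 3.17 and 3.78, with its highest values in pools 4 and 12. Pool 12, high for Ube2c and Plk1, was thus the lowest pool for Aurkb.

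Of the spindle and chromosome genes, Cenpa, the histone H3 variant of centromeres, was the one above the dim limit. It stood at 5.35, 5.34 and 5.37 in control, 5.30, 4.98 and 5.32 in IUGR F1, 5.45, 5.40 and 5.23 in ON F1, 4.87, 5.14 and 5.46 in IUGR F2, and 5.73, 5.12 and 5.29 in ON F2 pools. The controls were close together and pool 13 was the highest. Kif20a, a kinesin of cytokinesis, peaked in pools 13 and 8 at 4.34 and 4.11 and lay between 3.44 and 3.88 in the others. Prc1, which bundles midzone microtubules, was highest in pools 8 and 13 at 5.18 and 5.02 and lowest in pool 10 at 4.43. Nusap1, a spindle microtubule protein, was highest in pools 13 and 1 at 4.43 and 4.38. Top2a, which untangles replicated DNA, lay between 4.37 and 4.92, highest in pools 13 and 3. The kinesin Kif11 (3.57 to 4.00) and the kinetochore motor Cenpe (3.26 to 3.92) were highest in pools 11 and 12, in that order.

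Medians over each role show where the pools parted. For the 6 cyclin and Cdk1 genes the median deviation was 0.40 in pool 8, 0.36 in pool 13 and 0.21 in pool 12, and -0.29, -0.28 and -0.27 in pools 9, 10 and 11. The 8 kinase and checkpoint genes had 0.26 in pool 8, 0.23 in pool 13, 0.18 in pool 1 and 0.13 in pool 12, and at most 0.04 in the other pools. For the 8 spindle genes the highest medians were 0.32 in pool 13, 0.14 in pool 8, and 0.12 in both pools 1 and 12. The 10 replication fork genes had 0.23 in pool 13, 0.22 in pool 14 and 0.20 in pool 8, and -0.23 in pool 10, where all 10 lay below their own means. Pool 14 stood at -0.14 for the spindle genes, and at -0.05 for the 44 other replication genes described further on. The 3 nucleotide supply genes ranged from -0.18 in pool 10 to 0.15 in pool 7.

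**Figure D3:**
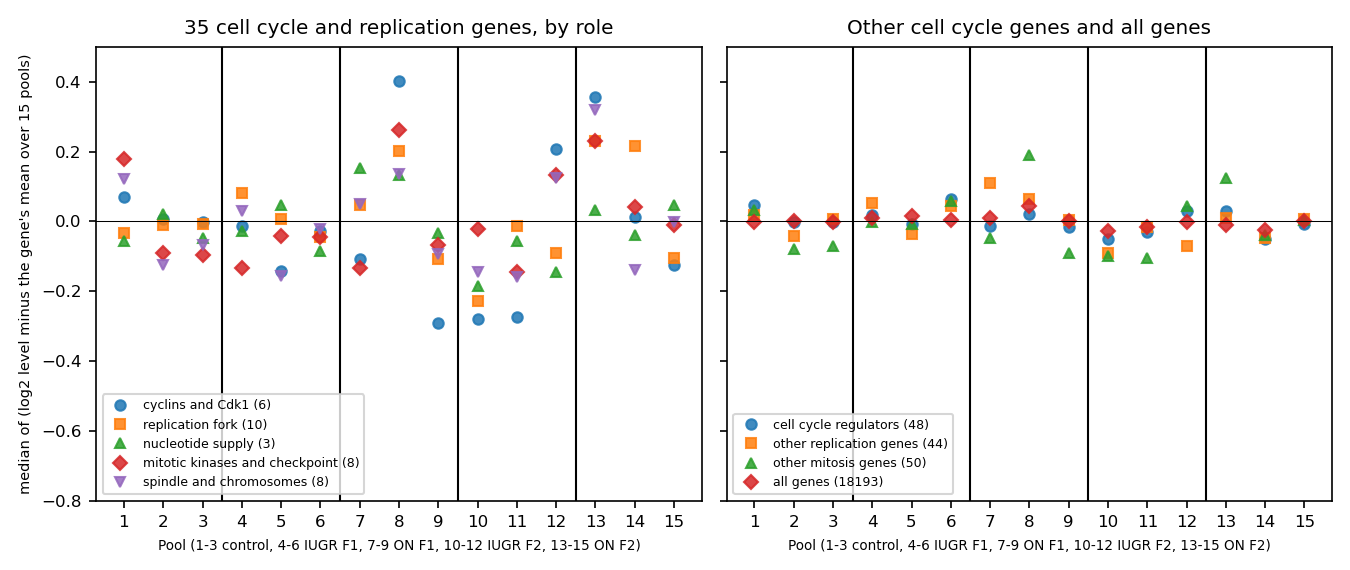
Median over a gene list of the log2 level minus the gene's mean over 15 pools, by pool, for the 35 genes in 5 roles (left) and for 3 other cell cycle lists and all 18193 genes (right). Pools 8 and 13 are high in most roles on the left and for other mitosis genes on the right (0.19 and 0.12), while all genes stay between -0.03 and 0.04.

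Against control, IUGR F1 livers gave 0 of the 35 genes at an adjusted p under 0.05 in limma, where 0.0% of all genes were called. At an unadjusted p under 0.05 there was 1 gene, Aurka (8.43% of all genes). The pools did not overlap for 6 genes, of which Mcm2 and Rrm1 were higher and Mcm6, Ccna2, Aurka and Cenpa lower (14.5% of all genes). These sides are those of the brightest probe sets. Dimmer ones lay on the other side of 0 for Ccna2 (0.05), Cenpa (0.04 and 0.02), Rrm1 (-0.09 and -0.11) and Aurka (0.11). They kept the side for Mcm2 (0.03) and Mcm6 (-0.53 and -0.08). The median difference of the 35 was -0.02, and 15 lay above 0 (52.3% of all genes), against 0.04 and 20 without control pool 1. Mcm6 differed by -0.40 (95% interval -0.83 to 0.02).

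ON F1 livers likewise gave 0 calls against control (0.022% of all genes). Mcm2 and Ccne2 were the 2 genes at an unadjusted p under 0.05, both higher (14% of all genes). For Mcm2, Rrm1 and Ccne2 the ON F1 and control pools did not overlap (16.4% of all genes). The median difference was 0.02, with 21 genes above 0 (55.0% of all genes). Without pool 8 it was -0.02, with 15 genes above 0. With arrays centred on their medians 15 genes lay above 0 (median -0.03), and with quantile normalisation repeated 16 (median -0.02).

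In IUGR F2 livers 0 genes were called against control (0.0% of all genes), and the 2 at an unadjusted p under 0.05 were Mcm6 and Aurka, both lower (7.05% of all genes). Mcm6 differed by -0.73 ± 0.20 (limma adjusted p = 0.550), the widest difference of the 35 genes in that comparison, and its next probe set by -0.54. Pools did not overlap for Mcm6, Pcna and Aurka (13.4% of all genes). The median difference was -0.09, with 10 genes above 0 and 25 below (46.6% of all genes were above 0).

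ON F2 livers also gave 0 calls against control (0.0% of all genes). Mcm5, Mcm3, Mcm4, Mcm2 and Bub1b were higher and Pcna lower at an unadjusted p under 0.05, which made 6 of 35 (15.1% of all genes), against 1 without pool 14, 2 without pool 1, 3 without pool 13 and 2 without pools 5, 8 and 13. Mcm5 differed by 0.67 ± 0.25 (limma adjusted p = 0.231) and its next probe set by 0.36. Pools did not overlap for 6 genes, Mcm2, Mcm3, Bub1b, Cdc20 and Cenpe on the higher and Pcna on the lower side (21.0% of all genes). The median difference was 0.10 and 25 genes lay above 0 (49.3% of all genes). Without pool 13 the median was -0.01 and 17 genes lay above 0. The 4 comparisons share the 3 control pools, so their values are not independent of each other.

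Between the generations of the IUGR lineage, 0 of the 35 genes were called (0.011% of all genes), and Rrm1 and Mcm2 were lower in F2 at an unadjusted p under 0.05 (11.4% of all genes). Pools did not overlap for 5, with Cdc20 higher and Mcm2, Cdc6, Pcna and Rrm1 lower in F2 (19.2% of all genes). In the ON lineage 0 were called as well, where 1.43% of all genes were. The 3 at an unadjusted p under 0.05 were Mcm5, higher in F2, and Ccne2 and Rrm1, lower in F2 (19.3% of all genes). Pools did not overlap for Tyms and Kif11, higher, and Rrm1 and Ccne2, lower in F2 (21.4% of all genes). There were 22 genes above 0 (43.4% of all genes) with a median of 0.08, against 15 with a median of -0.02 without either pool 9 or pool 13. Mcm5 differed by 0.68 ± 0.25 (limma adjusted p = 0.156) and without pool 15 by 0.98 (adjusted p = 0.0428), which is the 1 setting in which a gene of the 35 was called.

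Between lineages, the F1 groups gave 0 calls (0.011% of all genes) and the 2 genes at an unadjusted p under 0.05, Ccne2 and Aurka, were lower in IUGR F1 (6.35% of all genes). Pools did not overlap for Mcm2, Ccne2 and Aurka, all lower in IUGR F1 (9.94% of all genes). With all pools 26 of 35 lay below 0 and 9 above (47.7% of all genes were above 0), and 17 lay below 0 without pool 8 and 22 with arrays centred on their medians. In F2 the 35 genes leaned to one side. The median of IUGR F2 minus ON F2 was -0.17, where all genes had -0.01, and 31 of 35 lay below 0 and 4 above (46.7% of all genes were above 0), although 0 were called (0.0055% of all genes). The 5 at an unadjusted p under 0.05 were Mcm5 at -0.82 ± 0.25, Mcm6 at -0.63 ± 0.20, Mcm3 at -0.50 ± 0.14, Mcm2 at -0.30 ± 0.10 and Aurka at -0.27 ± 0.12, with adjusted p of 0.263 to 0.468 (10.1% of all genes had an unadjusted p under 0.05). Pools did not overlap for Mcm3, Cdc45, Cdk1 and Aurka (17.1% of all genes), narrowly for Cdc45 and Aurka. In the dimmer probe sets of Cdc45 and Aurka the pools did overlap. Leaving out pool 13 left 22 of 35 genes below 0 and a median of -0.07. The lineage by generation interaction gave 0 calls (0.011% of all genes), and Mcm5 was the 1 gene at an unadjusted p under 0.05, at -0.93 ± 0.35 (limma adjusted p = 0.557, with 7.71% of all genes at an unadjusted p under 0.05). Of the 35 genes 29 had an interaction below 0 and 6 above (50.0% of all genes were above 0), against 20 below without pool 13 and 25 below with quantile normalisation repeated.

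**Figure D4:**
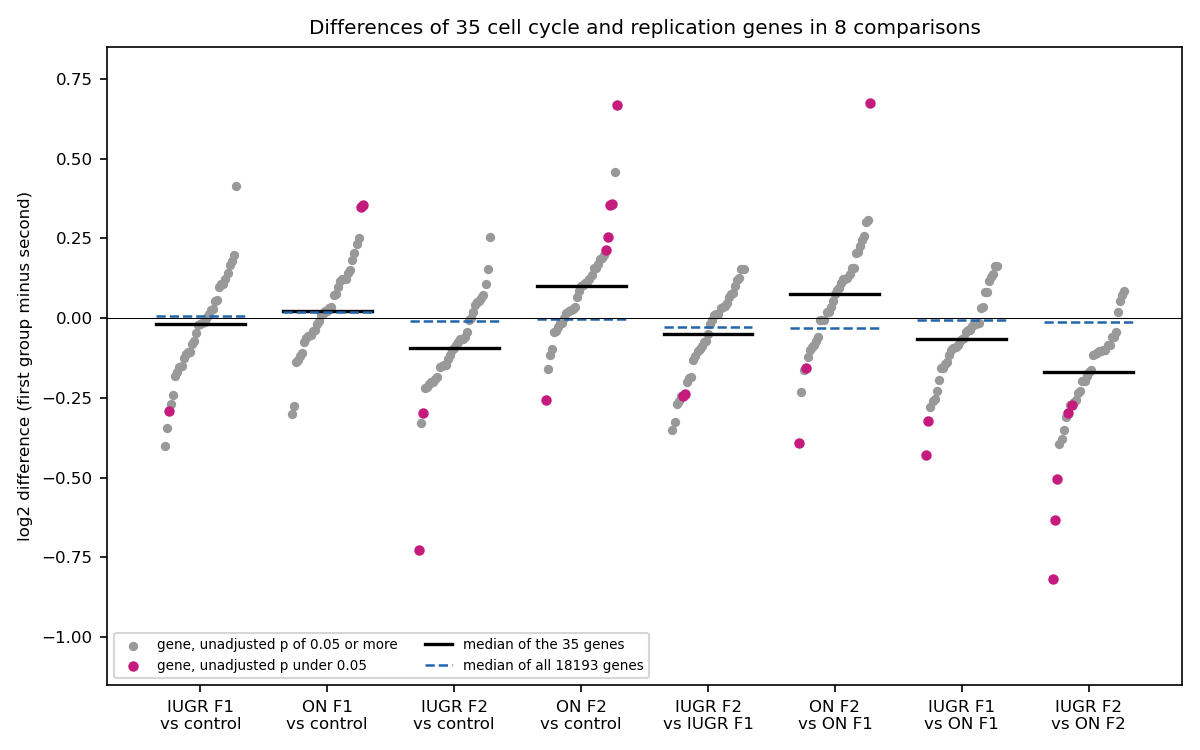
Log2 difference of each of the 35 genes in 8 comparisons, ordered by size within a comparison, with genes at an unadjusted p under 0.05 in magenta, the median of the 35 as a solid line and the median of all 18193 genes as a dashed line. The solid line lies furthest below 0 for IUGR F2 against ON F2 (-0.17), and Mcm5 is the highest point for ON F2 against control (0.67) and against ON F1 (0.68).

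Over the 5 groups at once the F test called 0 of the 35 genes (0.187% of all genes). At an unadjusted p under 0.05 there were 8, namely Mcm2, Mcm3, Rrm1, Mcm6, Aurka, Ccne2, Mcm5 and Pcna (18.0% of all genes). The count was 3 without pool 10 and 4 with dim genes left out. A gene that misses the threshold is not shown to be the same in 2 groups. For ON F2 against control, the 95% intervals of the 35 genes reached from 0.15 (Rrm1) to 0.89 (Ccnd1) on either side of the difference, with a median of 0.29.

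Other genes of the cycle were read from 3 lists. Among the 48 cell cycle regulators, which hold the pocket proteins, E2F factors, CDK inhibitors and checkpoint kinases, 1 was called in any comparison. That was in ON F2 against ON F1, where 1.43% of all genes were called, so 1 of 48 is close to that share. Rbl1, the pocket protein p107, fell from ON F1 to ON F2, with a difference of -0.61 ± 0.12 (limma adjusted p = 0.0313). It stood at 4.86, 4.55 and 4.73 in control, 4.67, 4.80 and 4.82 in IUGR F1, 5.08, 5.19 and 4.92 in ON F1, 4.53, 4.66 and 4.28 in IUGR F2, and 4.51, 4.62 and 4.21 in ON F2 pools. All ON F1 pools lay above every other pool and all ON F2 pools below every IUGR F1 pool. The adjusted p was 0.0648 to 0.0980 when 1 of pools 7, 8, 13, 14 or 15 was left out, 0.108 without pools 5, 8 and 13, and 0.103 for the mean of its probe sets. The difference was -0.50 to -0.70 with 1 pool left out and -0.58 without those 3 pools, but -0.23 for the mean of its probe sets. The gene was dim, and of the 6 pools of the lineage pool 9 was the one that could be left out with the call kept. Against control the regulators had 4 genes at an unadjusted p under 0.05 in IUGR F1 (3 higher, 1 lower), 11 in ON F1 (5 higher, 6 lower), 2 in IUGR F2 (both lower) and 8 in ON F2 (3 higher, 5 lower). These made 8.33%, 22.9%, 4.17% and 16.7% of the list, where all genes had 8.43%, 14%, 7.05% and 15.1% in the same order.

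Other regulators did not pass. Cdk7, the kinase that activates CDKs and the polymerase, stood at 7.41, 7.50 and 7.52 in control and 7.21, 6.98 and 7.03 in ON F2 pools, a difference of -0.40 ± 0.08 (limma adjusted p = 0.0819). Lin37, a MuvB subunit, stood at 6.57, 6.19 and 6.13 in control pools and was lower in the mean of each other group, from -0.33 in IUGR F1 to -0.56 ± 0.12 in ON F2 (adjusted p = 0.107). The inhibitory kinase Pkmyt1 was higher by 0.27 in IUGR F1 and 0.30 in ON F1 (adjusted p = 0.475 and 0.194). Wee1, another inhibitory kinase and a clock-driven gene in liver, stood at 7.09 in pool 2 and 7.30 in pool 14 and between 5.39 and 6.36 elsewhere, and IUGR F2 differed from control by -0.81 ± 0.34 (adjusted p = 0.689). The CDK inhibitor Cdkn1a (p21) ranged from 6.71 in pool 14 to 9.33 in pool 8, where the cyclin genes were also high.

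Of 44 other replication genes, limma called 0 in any comparison. At an unadjusted p under 0.05 against control there were 4 in IUGR F1 (2 higher, 2 lower), 3 in ON F1 (all higher), 6 in IUGR F2 (1 higher, 5 lower) and 8 in ON F2 (3 higher, 5 lower). These were 9.09%, 6.82%, 13.6% and 18.2% of the list, beside the 8.43%, 14%, 7.05% and 15.1% of all genes. The smallest p values against control belonged to Rrm2b (-0.34 ± 0.12, limma adjusted p = 0.474) and Pold2 (-0.39 ± 0.15, adjusted p = 0.499) in IUGR F1, Gins2 (0.22 ± 0.09, adjusted p = 0.303) and Pole (0.19 ± 0.08, adjusted p = 0.311) in ON F1, Mcm8 (-0.31 ± 0.11) and Slbp (-0.20 ± 0.07) in IUGR F2, and Pold2 (-0.51 ± 0.15, adjusted p = 0.160) and Slbp (-0.22 ± 0.07, adjusted p = 0.177) in ON F2. Pold2 is a subunit of DNA polymerase delta and Slbp binds histone messages. In IUGR F2 34 of the 44 lay below control, with a median of -0.07, beside -0.01 for all genes.

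Of 50 other mitosis genes limma called 0 as well. At an unadjusted p under 0.05 against control there were 8 in IUGR F1 (all higher), 8 in ON F1 (7 higher, 1 lower), 5 in IUGR F2 (2 higher, 3 lower) and 8 in ON F2 (7 higher, 1 lower). That is 16% of the list in IUGR F1, ON F1 and ON F2 and 10% in IUGR F2, beside 8.43%, 14%, 15.1% and 7.05% of all genes. The smallest p values against control belonged to Ncapd2 (0.31 ± 0.10) and Cenpn (0.24 ± 0.09) in IUGR F1, Bora (0.36 ± 0.12, limma adjusted p = 0.214) and Cenpi (0.26 ± 0.09) in ON F1, Spc24 (-0.57 ± 0.18, adjusted p = 0.647) and Spc25 (-0.69 ± 0.24) in IUGR F2, and Ncapg2 (0.50 ± 0.12, adjusted p = 0.133) and Kif4 (0.24 ± 0.08) in ON F2. Spc24 and Spc25 form a kinetochore dimer, and both had their lowest value in pool 10. In this list 42 of its 50 genes lay above their own means in pool 8 and 42 in pool 13, and 16 had their highest value in pool 8. The replication list had medians of 0.06 in pool 8 and 0.01 in pool 13. For IUGR F2 minus ON F2, 40 of the 50 mitosis genes lay below 0 and 10 above, with a median of -0.09, where 46.7% of all genes lay above 0 with a median of -0.01. Without pool 13 the list had 32 genes below 0 and a median of -0.05. In the same comparison 27 of the 48 regulators lay below 0 (median -0.04), and 26 of the 44 other replication genes (median -0.07). Without pool 13 these counts were 22 (median 0.01) and 27 (median -0.05).

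Values of other cell types and of RNA quality that moved with these pools are given here, and their part in the results was not tested. In pool 13 all 11 Kupffer cell genes and all 9 neutrophil and myeloid precursor genes lay above their means, with S100a8 at 7.15. Pool 3 had S100a8 at 6.73 and a Kupffer median of 0.45, and its median over the 35 genes was -0.05. In pool 8 all 6 T and NK cell genes were above their means (median 0.25), and the Kupffer median was 0.17. In pool 10 the Kupffer median was -0.37 and the sinusoidal endothelial median -0.32. The B and plasma cell median there was -0.29 and the erythroid median -0.21. Each of these was the lowest of the 15 pools for its list. The Kupffer list ranged from -0.10 to 0.45 over the control pools, -0.36 to -0.28 in IUGR F1, -0.07 to 0.17 in ON F1, -0.37 to 0.25 in IUGR F2 and 0.11 to 0.59 in ON F2. Pools 1 and 12, high for mitotic genes, had Kupffer medians of -0.10 and -0.22 and erythroid medians of -0.02 and 0.06. The 3' minus 5' log2 signal of the actin controls, which grows as RNA is shortened, was highest in pools 12 and 8 (2.28 and 2.22), and was 1.94 in pool 1, 1.95 in pool 13 and 1.76 to 2.10 in the rest. Dbp stood at 5.88, 5.34 and 7.97 in pools 1, 8 and 12 and at 9.84 in pool 13, a spread from the low to the high end of its range.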

How the data were processed

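Livers were frozen, and RNA was extracted with Trizol, biotin-labelled and hybridised to Affymetrix Mouse Genome 430 2.0 arrays, per the labels. The authors deposited a table with 1 log2 value for each probe set and array, for which the submitters' processing notes name RMA, and no version of it was found. RMA sets array distributions equal, which removes shifts shared by most genes, and compresses dim genes. The number of arrays limits the precision.

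Of 45101 probe sets, 64 controls were left out. Of the 45037 kept, 34945 had 1 gene symbol, 932 several and 9160 none, and 34741 matched RefSeq (GRCm38.p6) by Entrez identifier. Each of 18193 genes took its probe set with the highest mean. limma 3.58.1 (R 4.3.3) fitted 5 group means to 15 arrays (10 residual and 4.69 prior degrees of freedom, median standard error 0.104), and p was adjusted over all genes by Benjamini-Hochberg with a threshold of 0.05. The fit was tested on simulated data. Comparisons were each group against control, F2 against F1, IUGR against ON, the interaction (the lineage difference in F2 minus that in F1) and an F test. Values ± are standard errors of the fit.

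The 35 genes and the lists were chosen with earlier results of these data known. Pool values are given for genes with a mean of 5 or more and for those with an unadjusted p under 0.05 in a comparison, and ranges for most other dim genes. Ccnb2, Mki67 and Ube2c, and the second Cdc20 probe set, were added after their values were seen. From the lists, genes called in any comparison and the 2 with the smallest p against control are named. Cdkn1a was also added later. Alternatives were the mean or the most variable probe set of a gene, dim genes left out, a variance trend, only the groups compared, 2 scalings, Dbp as a covariate and each pool left out. Leaving out pools 5, 8 and 13 was chosen after seeing the data.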

Additional observations from a re-analysis of the deposited data

How the results depend on the processing

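No paired analysis was possible because the labels of the 15 pools link no pool to another. The count of called genes among the 35 stayed at 0 in every alternative and comparison with 1 exception, which was 1 gene (Mcm5) for ON F2 against ON F1 without pool 15. Leaving out each pool gave 0 to 1 there. The median differences of the 35 genes moved by less than the spread between pools (SD 0.128). That spread is wider than most of these medians, so staying within it does not show that they were stable. IUGR F2 against ON F2 went from -0.17 to -0.07 without pool 13. Medians near 0 changed sign in several alternatives. They included IUGR F1 against control without pool 1 (0.04) and ON F2 against control without pool 13 (-0.01). ON F1 against control changed with both scalings (-0.03 and -0.02) and without pool 2 (-0.0029) or 8 (-0.02). It also changed without pools 5, 8 and 13 (-0.02). ON F2 against ON F1 changed without pool 9 or 13 (-0.02). IUGR F1 against ON F1 changed without pool 8 (0.0074) and without pools 5, 8 and 13 (0.03). Counts of the 35 genes at an unadjusted p under 0.05 moved by over 1.5 times in 54 of 239 cases. With the most variable probe set, Slbp became 0.0032 in IUGR F2 and 0.012 in ON F2 against control, and Bub1b became -0.10 in ON F2 against control. Rrm1 in ON F2 against ON F1 became 0.024 with the mean of its probe sets and 0.15 with the most variable one. Rbl1 lost its call in 9 alternatives, with an adjusted p of 0.154 on only the groups compared and 0.205 with Dbp as a covariate. Calls over all genes were less stable and moved by over 1.5 times in 95 of 239 cases. For ON F2 against ON F1 there were 261, but 3 with Dbp as a covariate, 7 on only the groups compared and 19 to 313 when a pool was left out. Dim genes sit near background, where RMA understates differences. The cause of these changes was not tested.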
